A study of Mus musculus with 10 samples.

Results

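The genes described here are 10 regulators of the unfolded protein response, the programme by which a cell answers misfolded protein in the endoplasmic reticulum (ER): Eif2ak3, Ern1, Atf6, Atf4, Ddit3, Xbp1, Ppp1r15a, Trib3, Chac1 and Herpud1. They were taken by gene symbol from a count table of 23284 mouse genes, and all 10 passed the filter on low counts that left 12918 genes for testing. None of the 10 needed the counts of any single group to pass. The cells were macrophages that had been grown from the bone marrow of C57BL/6J mice for 6 days in macrophage colony-stimulating factor. Besides untreated cells, the groups were given Kdo2-lipid A (a minimal lipopolysaccharide that is a ligand of Toll-like receptor 4) at 0.03 nM for 1 h, 0.03 nM for 2 h, 10 nM for 1 h or 10 nM for 2 h. The labels name no genetic change in any group, and each of the 5 groups held 2 libraries of polyadenylated RNA, one from each of 2 independent experiments. Untreated cells were taken at 0 h only, so a change against them includes any effect of time in culture, whereas the doses can be compared at the same time.

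The unfolded protein response starts from sensors in the ER membrane. Eif2ak3 encodes PERK, a kinase that phosphorylates the translation factor eIF2 and so lowers protein synthesis while favouring translation of Atf4. Ern1 encodes IRE1, which cuts Xbp1 mRNA so that an active XBP1 factor is made, and Atf6 encodes a membrane-bound factor that is released by proteolysis in the Golgi. ATF4 turns on Ddit3 (CHOP), Trib3, Chac1 and Ppp1r15a. The Ppp1r15a product, GADD34, is a subunit of a phosphatase that returns eIF2 to its unphosphorylated form. Herpud1 encodes an ER membrane protein of the pathway that degrades misfolded proteins. Macrophages are known to use parts of this programme during Toll-like receptor signalling. Messenger RNA levels alone were measured here: kinase activity, proteolysis and protein were not, and counts per gene do not separate spliced from unspliced Xbp1 mRNA.

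Library totals ran from 33179599 to 42167096 counts. The pair of libraries at 0.03 nM 2 h stood apart, with an SD of the log2 difference between experiments of 0.301 across genes, against 0.185 to 0.228 in the other groups. In that pair the difference (experiment 2 minus experiment 1) also went with exonic length, at Spearman rho = -0.617 across 10333 genes, which are not independent replicates, and at -0.014 to 0.296 in the other groups. The 7 macrophage markers, Csf1r, Emr1 and Lyz2 among them, summed to 23888 to 32928 CPM, the standard depth-scaled count. Cd14, also among them, ran from 524 to 3444 CPM. The 4 T cell markers summed to 31.8 to 39.0 CPM, nearly all of it Cd4 (31.8 to 38.8 CPM), while Cd3e, Cd3d and Cd8a were at or below 0.164 CPM. Cd79a and Ms4a1 were at or below 2.10 CPM, and 6 neutrophil markers summed to 13.2 to 26.7 CPM. The 7 plasma and B cell markers summed to 70.1 and 71.1 CPM in untreated cells and to 494 and 517 CPM at 10 nM 1 h, most of it Prdm1 (25.4 to 462 CPM) and Sdc1 (33.7 to 97.7 CPM). The 7 stromal and endothelial markers summed to 38.4 to 46.0 CPM in experiment 1 and to 70.1 to 83.2 CPM in experiment 2. The part of these markers in the results was not tested. Levels are CPM with TMM (trimmed mean of M values) scaling, which assumes that most genes do not change. Scaling by library totals moved the median log2 change of all genes to -0.38 at 10 nM 1 h and -0.59 at 10 nM 2 h against untreated cells, where TMM gave -0.02 and -0.03. Changes below are thus relative to the bulk of genes. Fewer cells of a type and less RNA per cell cannot be told apart in such samples.

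At 10 nM the regulators did not move as one group: Ppp1r15a, Herpud1 and Atf4 rose at both times, Xbp1 and Chac1 rose by 2 h, Atf6 rose at 1 h alone, Ddit3 and Eif2ak3 fell at both times, and Ern1 fell by 2 h. Calls rest on the quasi-likelihood test of edgeR, with p adjusted by Benjamini-Hochberg across the 12918 genes and a threshold of 0.05. Those for Atf6, Ddit3, Xbp1 at 2 h and Eif2ak3 at 1 h were lost with another scaling or without single libraries, as given below. After 1 h at 0.03 nM, 2 of the 10 regulators were higher than in untreated cells and 0 lower, where 1.42% of all genes were called higher and 0.108% lower. At an unadjusted p below 0.05, 1 regulator (Xbp1) was lower, and DESeq2 and limma-voom called 0 lower. After 2 h at 0.03 nM, 3 were higher and 1 lower (all genes: 6.45% and 3.37%), but 3 and 4 without the experiment 1 library at 0.03 nM 2 h, where calls over all genes also went from 833 higher and 435 lower to 1452 and 1676. In all, 2 regulators were called without that of experiment 2 or either untreated library. After 1 h at 10 nM, 4 were higher and 2 lower (all genes: 18.5% and 18.3%), and after 2 h, 5 were higher and 3 lower (all genes: 28.6% and 30.1%). The 1 h count of 6 became 3 without the untreated experiment 1 library or the experiment 2 library at 10 nM 1 h. The median log2 change of the 10 regulators was 0.17 at 10 nM 1 h and 0.20 at 10 nM 2 h. Scaling by library totals changed these splits to 3 higher and 3 lower at 10 nM 1 h and to 4 higher and 5 lower at 10 nM 2 h, and the 0.03 nM 2 h split to 3 higher and 2 lower. All genes then split into 1280 higher and 6755 lower at 10 nM 1 h (2393 and 2368 with TMM) and 1903 higher and 7898 lower at 10 nM 2 h (3698 and 3882 with TMM). Upper quartile factors gave 3 higher and 3 lower regulators at 10 nM 1 h (all genes 1703 and 4055) and 5 and 4 at 10 nM 2 h (all genes 2668 and 5466).

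**Figure D1:**
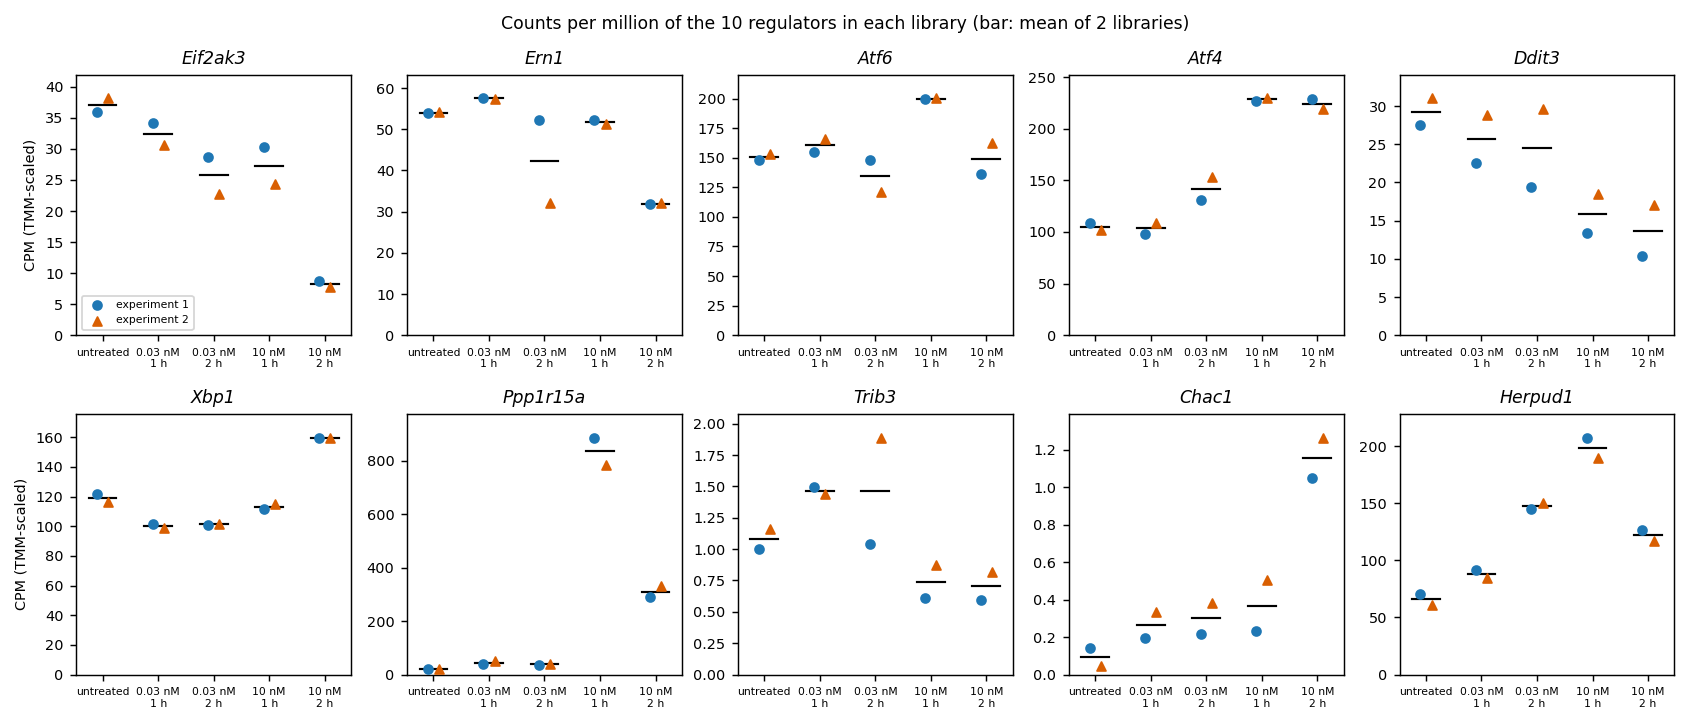
Level of each regulator in every library, in CPM after TMM scaling on a linear axis that starts at 0, by dose and time; circles are experiment 1, triangles experiment 2 and bars the mean of both. Ppp1r15a stands at 887 and 784 CPM at 10 nM 1 h against 21.8 and 21.4 CPM untreated, and Eif2ak3 at 8.77 and 7.80 CPM at 10 nM 2 h against 35.9 and 38.2 CPM untreated.

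Among the sensors, Eif2ak3 (chromosome 6, 70794521 to 70855234 on mm9, 17 exon segments) changed most. Its levels in experiments 1 and 2 were 35.9 and 38.2 CPM untreated, 34.1 and 30.6 CPM at 0.03 nM 1 h, 28.7 and 22.8 CPM at 0.03 nM 2 h, 30.3 and 24.3 CPM at 10 nM 1 h, and 8.77 and 7.80 CPM at 10 nM 2 h. Both libraries of the last group lay below all other libraries, and the 3 other treated groups lay below both untreated libraries. The fall at 10 nM 2 h was 4.47-fold (log2 -2.16 ± 0.15 SE, adjusted p = 1.10e-07), lower in both experiments. The smaller falls of 1.44-fold at 0.03 nM 2 h (adjusted p = 0.0261) and 1.36-fold at 10 nM 1 h (adjusted p = 0.0206) depended on single libraries. The former lost its call without either of the untreated libraries or the experiment 2 library at 0.03 nM 2 h (adjusted p = 0.0931 to 0.168), nor with only the groups compared in the fit (0.0784). The latter lost its call without either of the untreated libraries or the experiment 2 library at 10 nM 1 h (adjusted p = 0.0583 to 0.206).

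Ern1 (chromosome 11, 106258934 to 106349110, minus strand, 22 exon segments) stayed near its untreated level at 1 h and was lower at 10 nM 2 h. The untreated libraries held 53.9 and 54.1 CPM, those at 0.03 nM 1 h 57.5 and 57.4 CPM, those at 10 nM 1 h 52.3 and 51.2 CPM, and those at 10 nM 2 h 31.7 and 32.1 CPM. The fall at 10 nM 2 h was 1.69-fold (log2 -0.76 ± 0.17, adjusted p = 0.00392), and the 2 libraries of a group lay close together in all groups but one. At 0.03 nM 2 h the experiments disagreed: experiment 1 held 52.2 CPM, near untreated cells, and experiment 2 held 32.2 CPM, near the 10 nM 2 h level. With both libraries that change was not called (log2 -0.36 ± 0.17, adjusted p = 0.262). Without the experiment 1 library at 0.03 nM 2 h it was -0.75 and called (adjusted p = 1.96e-05). The long sensor genes Ern1, Eif2ak3 and Atf6 were all lower in experiment 2 in that pair of libraries, where the difference went with exonic length; its part in these values was not tested.

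Atf6 (chromosome 1, 172634588 to 172797902, minus strand, 16 exon segments) differed from the other sensors by a rise at 10 nM 1 h. It went from 148 and 153 CPM untreated to 199.6 and 200.3 CPM, the 2 highest values of the 10 libraries, and lay at 136 and 162 CPM at 10 nM 2 h. At 0.03 nM it lay at 155 and 166 CPM after 1 h and at 148 and 121 CPM after 2 h. The rise at 10 nM 1 h was 1.33-fold (log2 0.41 ± 0.11, adjusted p = 0.00994), but 0.04 on the log2 scale (adjusted p = 0.764) with scaling by library totals and 0.23 (adjusted p = 0.0692) with upper quartile factors. It was also not called without the untreated experiment 1 library or either 10 nM 1 h library (adjusted p = 0.0519 to 0.0729). At 10 nM 2 h the change was -0.01 ± 0.11 (adjusted p = 0.920), but -0.57 and called with library totals (adjusted p = 0.000407) and -0.25 with upper quartile factors (0.0397). Without the experiment 1 library at 0.03 nM 2 h the 0.03 nM 2 h value became -0.32 and was called (adjusted p = 0.0252).

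Of the transcription factors, Atf4 (chromosome 15, 80085614 to 80087971, 3 exon segments) rose at 10 nM by 1 h and was at a like level at 2 h. The untreated libraries held 108 and 102 CPM and those at 0.03 nM 1 h 97.7 and 109 CPM, which overlapped. At 0.03 nM 2 h there were 131 and 153 CPM, at 10 nM 1 h 227 and 229.5 CPM, and at 10 nM 2 h 229.2 and 219.5 CPM. All 4 libraries at 10 nM lay above the other 6. The rise was 2.17-fold at 10 nM 1 h (log2 1.12 ± 0.09, adjusted p = 1.35e-06) and 2.13-fold at 10 nM 2 h (log2 1.09 ± 0.09, adjusted p = 7.49e-07). At 0.03 nM 2 h it was 1.35-fold (log2 0.43 ± 0.09, adjusted p = 0.00956), not called without either untreated library (adjusted p = 0.0512 and 0.116) or with only the groups compared in the fit (0.0841).

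Ddit3, the gene of the stress factor CHOP (chromosome 10, 126727849 to 126733344, 4 exon segments), went the other way. Its levels in experiments 1 and 2 were 27.5 and 31.0 CPM untreated, 22.6 and 28.8 CPM at 0.03 nM 1 h, 19.4 and 29.6 CPM at 0.03 nM 2 h, 13.4 and 18.5 CPM at 10 nM 1 h, and 10.3 and 17.0 CPM at 10 nM 2 h. Every group was higher in experiment 2, and both 10 nM groups lay below the untreated libraries. The fall was 1.84-fold at 10 nM 1 h (log2 -0.88 ± 0.29, adjusted p = 0.0468) and 2.14-fold at 10 nM 2 h (log2 -1.10 ± 0.29, adjusted p = 0.0128). The 1 h call was lost without any one of 6 libraries, the untreated, 0.03 nM 2 h and 10 nM 1 h pairs (adjusted p = 0.0544 to 0.212), and without the filter on low counts (0.135). The 2 h call was lost without the experiment 1 library at 10 nM 2 h or the untreated experiment 2 library (adjusted p = 0.0584 and 0.0569). Ddit3 shares 68 bases, 7.81% of its exonic length, with Mars on the opposite strand, and without a stated strand setting reads there cannot be told apart. Mars changed by -0.51 ± 0.09 log2 at 10 nM 2 h (adjusted p = 0.000295).

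Xbp1 (chromosome 11, 5420970 to 5425875, 5 exon segments) rose late. It was at 122 and 116 CPM untreated, 101 and 98.6 CPM at 0.03 nM 1 h, 101 and 102 CPM at 0.03 nM 2 h, 111 and 115 CPM at 10 nM 1 h, and 159.8 and 159.4 CPM at 10 nM 2 h. The 10 nM 2 h libraries lay above all others, and both 0.03 nM groups lay below the untreated pair. The 10 nM 2 h change was 1.34-fold (log2 0.42 ± 0.07, adjusted p = 0.000190), but its sign turned with scaling by library totals (log2 -0.13, adjusted p = 0.0999). The lower values at 0.03 nM were not called (log2 -0.25 ± 0.07, adjusted p = 0.153 at 1 h; -0.23 ± 0.07, adjusted p = 0.0556 at 2 h). Leaving out 1 library of the 0.03 nM 2 h pair let the 1 h value pass (adjusted p = 0.0344 without experiment 1 and 0.0383 without experiment 2), and the 2 h value passed without the library of experiment 1 (adjusted p = 0.0279), with DESeq2 (0.0439), with limma-voom (0.0466) and with library totals (log2 -0.30, 0.0163). At 10 nM 1 h the change was -0.07 ± 0.07 (adjusted p = 0.452), but -0.44 (0.000220) with library totals and -0.25 (0.0152) with upper quartile factors.

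**Figure D2:**
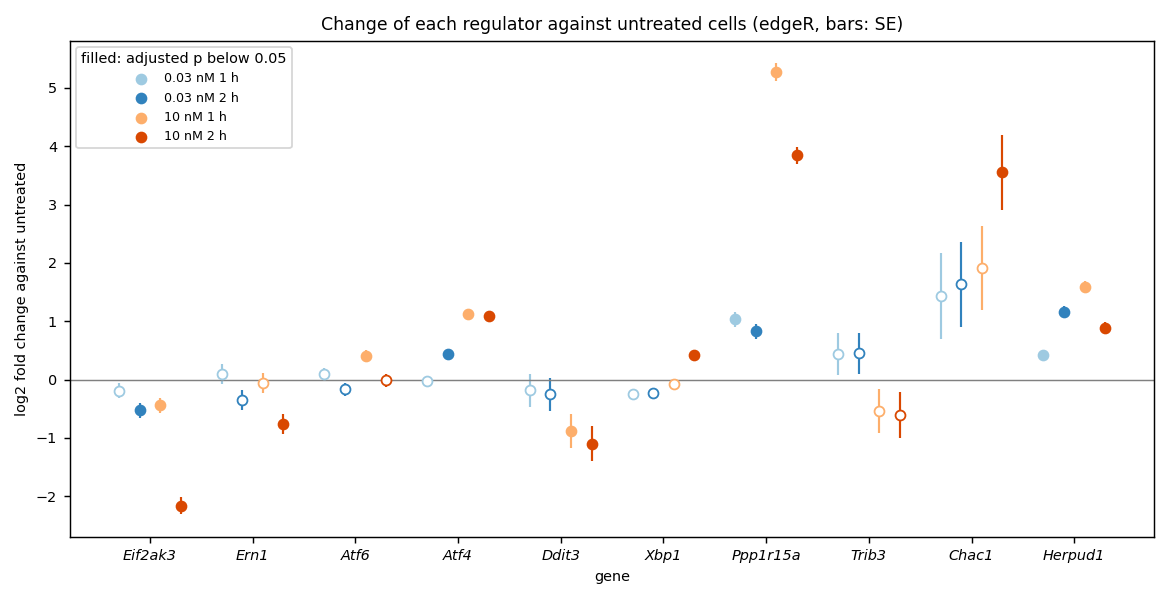
Log2 fold change of each regulator against untreated cells in the edgeR fit, for 4 treated groups; bars are SE and filled points have an adjusted p below 0.05. Ppp1r15a reaches 5.27 at 10 nM 1 h and Eif2ak3 -2.16 at 10 nM 2 h, while Trib3 has no filled point.

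Ppp1r15a, the gene of a subunit of a phosphatase that acts on eIF2 (chromosome 7, 52778288 to 52781638, minus strand, 3 exon segments), had the largest change of the 10. It was at 21.8 and 21.4 CPM untreated, 37.8 and 50.7 CPM at 0.03 nM 1 h, 36.8 and 39.8 CPM at 0.03 nM 2 h, 887 and 784 CPM at 10 nM 1 h, and 289.9 and 329.9 CPM at 10 nM 2 h. Every treated library lay above both untreated ones, and the 10 nM groups overlapped no other group. The rise was 38.7-fold at 10 nM 1 h (log2 5.27 ± 0.15, adjusted p = 2.25e-10) and 14.3-fold at 10 nM 2 h (log2 3.84 ± 0.14, adjusted p = 7.84e-10). At 0.03 nM it was 2.05-fold after 1 h (adjusted p = 0.00124) and 1.77-fold after 2 h (adjusted p = 0.00148). The last of these was not called without the experiment 2 library at 0.03 nM 2 h (adjusted p = 0.0528).

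Chac1 and Trib3, ATF4 targets for a glutathione-degrading enzyme and a pseudokinase that restrains ATF4 and CHOP, were close to silent. Chac1 (chromosome 2, 119176978 to 119180062, 3 exon segments) had 6 and 2 counts untreated, 8 and 14 at 0.03 nM 1 h, 8 and 16 at 0.03 nM 2 h, 8 and 19 at 10 nM 1 h, and 32 and 37 at 10 nM 2 h. The 10 nM 2 h libraries, at 1.05 and 1.27 CPM, lay above the rest. The fitted rise there was 11.7-fold (log2 3.55 ± 0.65, adjusted p = 0.000518), a size that rests on the 8 untreated counts. Changes in the other groups were not called (log2 1.43 to 1.91, adjusted p = 0.0548 to 0.739), except that 10 nM 1 h passed without its library of experiment 1 (adjusted p = 0.0467).

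Trib3 (chromosome 2, 152163161 to 152169796, minus strand, 4 exon segments) had 42 and 48 counts untreated, 62 and 60 at 0.03 nM 1 h, 38 and 79 at 0.03 nM 2 h, 21 and 33 at 10 nM 1 h, and 18 and 24 at 10 nM 2 h. In CPM the 4 libraries at 10 nM, at 0.591 to 0.872, lay below the other 6. No change against untreated cells was called (log2 0.44 ± 0.36 and 0.45 ± 0.36 at 0.03 nM, -0.54 ± 0.38 and -0.61 ± 0.39 at 10 nM, with adjusted p of 0.203 to 0.949). With scaling by library totals the 10 nM 2 h value was -1.17 and called (adjusted p = 0.0169).

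Herpud1 (chromosome 8, 96910400 to 96919258, 8 exon segments) rose in all 4 treated groups, as Ppp1r15a did. It stood at 70.7 and 61.2 CPM untreated, 91.8 and 84.9 CPM at 0.03 nM 1 h, 145 and 150.4 CPM at 0.03 nM 2 h, 208 and 189 CPM at 10 nM 1 h, and 127 and 117 CPM at 10 nM 2 h. No pair of groups overlapped, and at 2 h the low dose stood above the high dose. The rise was 3.01-fold at 10 nM 1 h (log2 1.59 ± 0.09, adjusted p = 6.42e-08), 2.24-fold at 0.03 nM 2 h (log2 1.16 ± 0.09, adjusted p = 5.55e-06) and 1.85-fold at 10 nM 2 h (log2 0.89 ± 0.09, adjusted p = 4.45e-06). The 1.34-fold rise at 0.03 nM 1 h (adjusted p = 0.0436) was called only with all libraries or without 1 of the 0.03 nM 2 h pair. Leaving out any one of the other 8 libraries gave an adjusted p of 0.0775 to 0.510.

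Promoter sequence is shown for the 3 rising genes that hold a stress element or a cyclic AMP element (CRE). The stress elements are classical entry points of the pathway. Promoters of 9 of the 10 genes were found in RefSeq (build GRCm38.p6, which differs from the mm9 of the counts), each running from 250 bases before to 50 after the gene's start; Atf6 was not among them. Both strands were searched, capitals mark the matches, and all 3 stretches are written on the gene's own strand. Herpud1 (chr8:94386307-94386397, plus strand) holds a core of the CARE element that ATF4 binds, on the opposite strand 112 to 105 bases before the start, and ERSE-II, an element of ATF6 and XBP1, 52 to 42 bases before it:
Herpud1: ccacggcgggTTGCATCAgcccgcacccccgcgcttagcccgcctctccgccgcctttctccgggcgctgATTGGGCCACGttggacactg
Chac1 (chr2:119351039-119351066, plus strand) holds the CARE core on the opposite strand, 193 to 186 bases before the start:
Chac1: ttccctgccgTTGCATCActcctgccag
Ppp1r15a (chr7:45526269-45526290, minus strand) holds the CRE, the palindrome bound by CREB and ATF factors, 12 to 5 bases before the start:
Ppp1r15a: gcctctccggTGACGTCAgcac

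ERSE-II (ATTGGNCCACG) occurs in 12 of 32851 mouse promoters of 300 bases (0.0365%), the CARE core (TGATGNAA) in 3.97% and the CRE (TGACGTCA, counted once per position) in 1.79%. Trib3 also holds the CARE core, on the opposite strand 14 to 21 bases after its start, although its level did not pass the test against untreated cells. The ERSE (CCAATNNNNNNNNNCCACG), the UPRE core (TGACGTGG) and the NF-kB consensus were found in 0 of the 9 promoters, against 0.119%, 0.676% and 4.51% of all. These are matches of letters in a short window and no measure of binding.

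Comparing the doses at 1 h, 4 regulators were higher at 10 nM than at 0.03 nM and 0 lower, where 18.0% of all genes were higher and 17.3% lower. The higher ones were Ppp1r15a (18.9-fold, log2 4.24 ± 0.14, adjusted p = 1.10e-09), Herpud1 (2.25-fold, log2 1.17 ± 0.09, adjusted p = 1.08e-06), Atf4 (2.21-fold, log2 1.14 ± 0.09, adjusted p = 1.30e-06) and Atf6 (1.24-fold, log2 0.32 ± 0.11, adjusted p = 0.0369). Atf6 turned to -0.04 with scaling by library totals and was 0.14 (adjusted p = 0.262) with upper quartile factors, and its call was lost without any one of 6 libraries, all but those of 2 h (adjusted p = 0.0549 to 0.186). At an unadjusted p below 0.05, 5 regulators were higher, the 4 above and Xbp1 (log2 0.18 ± 0.07, adjusted p = 0.0619). Xbp1 was called higher with RLE size factors (log2 0.19, adjusted p = 0.0471) and lower with library totals (log2 -0.18, adjusted p = 0.0422). At the same unadjusted threshold 2 regulators were lower, Ddit3 (log2 -0.69 ± 0.29) and Trib3 (log2 -0.98 ± 0.37). DESeq2 called 1 lower and limma-voom 0, and with the experiment as a block both passed (Ddit3 -0.70, adjusted p = 0.00138; Trib3 -1.01, adjusted p = 0.0324). Scaling by library totals gave 3 higher and 5 lower (all genes 1205 and 6584, against 2320 and 2238 with TMM). With only the groups compared in the fit, 5 were higher and 2 lower (all genes 2815 and 2690).

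At 2 h, 4 regulators were higher at 10 nM than at 0.03 nM and 4 lower, against 25.6% and 27.2% of all genes. Ppp1r15a was 8.08-fold higher (log2 3.02 ± 0.13, adjusted p = 7.86e-09), Atf4 1.58-fold (log2 0.66 ± 0.09, adjusted p = 6.35e-05), Xbp1 1.57-fold (log2 0.66 ± 0.07, adjusted p = 7.10e-06) and Chac1 3.78-fold (log2 1.92 ± 0.56, adjusted p = 0.0120). Eif2ak3 was 3.10-fold lower (log2 -1.63 ± 0.15, adjusted p = 1.86e-06). Herpud1 was 1.21-fold lower (log2 -0.28 ± 0.09, adjusted p = 0.0221), Ddit3 1.80-fold (adjusted p = 0.0433) and Trib3 2.08-fold (adjusted p = 0.0363). With scaling by library totals the split was 3 higher and 6 lower (all genes 1726 and 7637, against 3313 and 3514 with TMM), Atf4 stood at 0.17 (adjusted p = 0.0960), and Ern1 passed at -0.89 (adjusted p = 0.00140). Upper quartile factors gave 4 higher and 5 lower (all genes 2404 and 5296), with Ern1 at -0.62 (adjusted p = 0.00446). Several of these calls changed when a single library was left out, in some cases one outside the 2 groups compared. Without the untreated libraries the Ddit3 log2 value stayed at -0.846 and -0.845, against -0.845 with all, and only its adjusted p moved. Herpud1 was not called without the experiment 2 library at 10 nM 2 h (adjusted p = 0.156), which left 5 called regulators, or with only the groups compared (0.0582), and Chac1 not without that library or the experiment 1 library at 0.03 nM 2 h (0.0679 and 0.0815). Trib3 was lost without the experiment 2 library at 0.03 nM 2 h or either 10 nM 2 h library (0.0554 to 0.296), in DESeq2 (0.0522), in limma-voom (0.0578) and with only the groups compared (0.0709). Ddit3 was lost without either untreated library, the experiment 2 library at 0.03 nM 2 h or the experiment 1 library at 10 nM 2 h (0.0601 to 0.282), and without the filter on low counts (0.117). Ern1 passed without the experiment 2 library at 0.03 nM 2 h (log2 -0.75, adjusted p = 1.73e-06) and Atf6 without that of experiment 1 (log2 0.31, adjusted p = 0.0147).

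**Figure D3:**
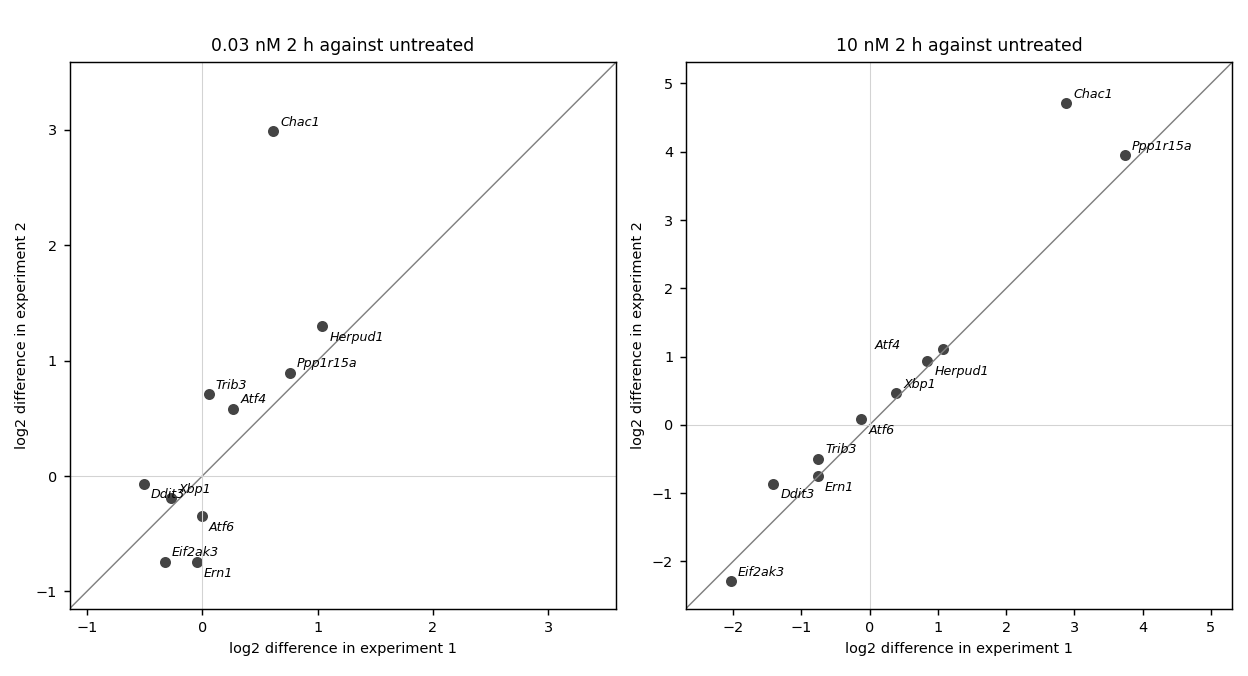
Log2 difference from untreated cells in experiment 1 (x axis) and experiment 2 (y axis) for each regulator, at 0.03 nM 2 h (left) and 10 nM 2 h (right); the diagonal marks equal values. Ern1 at 0.03 nM 2 h is near 0 in experiment 1 (-0.05) and at -0.75 in experiment 2, whereas at 10 nM 2 h it is -0.76 and -0.75; Chac1 lies off the diagonal, with 2 untreated counts in experiment 2.

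From 1 h to 2 h at 0.03 nM, Atf4 rose 1.37-fold (log2 0.46 ± 0.09, adjusted p = 0.0122) and Herpud1 1.67-fold (log2 0.74 ± 0.09, adjusted p = 0.000478). These were the 2 called regulators, with 0 falling (all genes: 3.51% higher and 1.59% lower). At an unadjusted p below 0.05, 3 were lower (Ern1, Eif2ak3 and Atf6), and DESeq2 and limma-voom called 0. Without the experiment 1 library at 0.03 nM 2 h, these 3 stood at log2 -0.84 (Ern1), -0.51 (Eif2ak3) and -0.41 (Atf6). The Atf4 call was lost without the experiment 1 library at 0.03 nM 1 h (log2 0.38) or with only the groups compared (adjusted p = 0.173). From 1 h to 2 h at 10 nM, 2 regulators rose and 5 fell (all genes: 21.3% and 21.5%). Xbp1 rose 1.41-fold (log2 0.50 ± 0.07, adjusted p = 0.000115) and Chac1 3.11-fold (adjusted p = 0.0310). Eif2ak3 fell 3.29-fold (log2 -1.72 ± 0.15, adjusted p = 2.67e-06), Ppp1r15a 2.70-fold (log2 -1.43 ± 0.12, adjusted p = 3.91e-06), Herpud1 1.63-fold (log2 -0.70 ± 0.09, adjusted p = 6.99e-05), Ern1 1.62-fold (adjusted p = 0.00963) and Atf6 1.34-fold (adjusted p = 0.00727). Atf4 changed by -0.03 ± 0.09 (adjusted p = 0.845) over the same hour. The Chac1 call was lost without either 10 nM 2 h library or the experiment 1 library at 10 nM 1 h (adjusted p = 0.0787 to 0.205), Ern1 without either 10 nM 2 h library (0.0502 and 0.0558) and Atf6 without that of experiment 1 (0.0883), which left 4 called regulators.

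The test of the interaction asked whether the change from 1 h to 2 h differed between doses, and 5 regulators passed (1 higher and 4 lower; all genes: 10.4% and 11.6%). Herpud1 rose with time at 0.03 nM and fell at 10 nM, a difference of -1.44 ± 0.13 log2 (adjusted p = 1.54e-05). For Ppp1r15a the difference was -1.22 ± 0.18 (adjusted p = 0.000514) and for Eif2ak3 -1.39 ± 0.20 (adjusted p = 0.000414). Xbp1 gave 0.48 ± 0.10 (adjusted p = 0.00411). Atf4, which rose with time at the low dose alone, gave -0.48 ± 0.13 (adjusted p = 0.0180), a call lost without the experiment 1 library at 0.03 nM 1 h, either 10 nM 1 h library or the experiment 2 library at 10 nM 2 h (adjusted p = 0.0607 to 0.0746).

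Levels of different genes were compared per exonic length, as CPM per kilobase (RPKM). In untreated cells Xbp1 (66.1 ± 2.34 RPKM, SD, n = 2) and Atf4 (61.0 ± 2.54) led, above 92.7% and 92.1% of the genes tested. Herpud1 (35.2 ± 3.58) and Ddit3 (33.6 ± 2.85) overlapped in their libraries, and Atf6 (20.2 ± 0.501), Ern1 (13.6 ± 0.0299), Ppp1r15a (9.26 ± 0.118) and Eif2ak3 (8.24 ± 0.352) followed without overlap. Trib3 (0.526 ± 0.0540) and Chac1 (0.0609 ± 0.0427) came last, with 16.1% and 3.28% of genes below them. After 1 h at 0.03 nM the order was Atf4 (59.96 ± 4.69), Xbp1 (55.5 ± 1.04), Herpud1 (47.2 ± 2.59), Ddit3 (29.5 ± 5.06), Atf6 (21.5 ± 1.04), Ppp1r15a (19.0 ± 3.92), Ern1 (14.5 ± 0.0184), Eif2ak3 (7.20 ± 0.552), Trib3 (0.715 ± 0.0196) and Chac1 (0.168 ± 0.0643). In that group Atf4 and Xbp1 did not overlap, while Atf6 and Ppp1r15a did.

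After 2 h at 0.03 nM, Atf4 (82.2 ± 9.24 RPKM) and Herpud1 (79.0 ± 1.91) overlapped at the top, above Xbp1 (56.3 ± 0.186), Ddit3 (28.1 ± 8.28), Atf6 (18.0 ± 2.58) and Ppp1r15a (16.4 ± 0.894), of which the last 2 overlapped. At 10 nM 1 h Ppp1r15a led at 358 ± 31.1 RPKM, above 98.2% of the genes tested, followed by Atf4 (132 ± 0.922), Herpud1 (106 ± 6.90), Xbp1 (62.8 ± 1.27), Atf6 (26.8 ± 0.0623) and Ddit3 (18.3 ± 4.13). At 10 nM 2 h Ppp1r15a (133 ± 12.1) and Atf4 (130.1 ± 3.97) overlapped, then came Xbp1 (88.7 ± 0.147), Herpud1 (65.3 ± 3.63), Atf6 (20.0 ± 2.49) and Ddit3 (15.7 ± 5.46), of which the last 2 overlapped. Eif2ak3 ended at 1.84 ± 0.152 RPKM, with 29.6% of genes below it against 54.3% in untreated cells. Chac1 (0.738 ± 0.0967) passed Trib3 (0.344 ± 0.0792) in this group alone.

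Other genes of the pathway were read from 6 lists at 10 nM 2 h against untreated cells, where 28.6% of all genes were higher, 30.1% lower and the median log2 change was -0.03. List splits under the other scalings are to be read against 1903 higher and 7898 lower of all genes with library totals, and 2668 and 5466 with upper quartile factors. Of 17 ER chaperones and folding enzymes, 9 were higher and 1 lower (median 0.21), but with scaling by library totals 2 were higher and 13 lower, and with upper quartile factors 3 and 5. Hspa5, the main ER chaperone BiP, went from 749 and 774 CPM untreated to 1747 and 1779 CPM (log2 1.21 ± 0.07, adjusted p = 2.47e-08). Ero1l, an oxidase for disulfide formation, gave 1.55 ± 0.13 and the secreted factor gene Manf 0.65 ± 0.09, which library totals lowered to 0.10 (adjusted p = 0.340, not called). Pdia4, a disulfide isomerase, was lower (-0.22 ± 0.07, adjusted p = 0.0200), a call that DESeq2 did not make (adjusted p = 0.0599) and that was lost without any 1 library of the 2 groups compared (0.0536 to 0.108). Against 0.03 nM at 2 h, 5 of the 17 were higher and 0 lower in edgeR, DESeq2 and limma-voom alike, with 5 at an unadjusted p below 0.05, where 25.6% of all genes were higher and 27.2% lower. Library totals gave 2 higher and 13 lower (all genes 1726 and 7637). Canx, for the lectin chaperone calnexin, was among the 5 (log2 0.32 ± 0.08) and turned to -0.17 with library totals.

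Of 15 tested genes of ER-associated degradation and translocation, the process Herpud1 belongs to, 7 were higher and 1 lower (median 0.19), but with library totals 0 were higher and 9 lower, and with upper quartile factors 5 and 4. Sel1l, the adaptor of the HRD1 ligase, gave 0.73 ± 0.09, the mannosidase-like Edem1 0.68 ± 0.09 and Ubxn4 0.63 ± 0.07, and none of the 3 was called with library totals (log2 0.07 to 0.18, adjusted p = 0.112 to 0.380). Edem3 was lower (-0.45 ± 0.17, adjusted p = 0.0403), lost without any one of 6 libraries, the untreated and both 10 nM pairs (0.0536 to 0.150), with RLE size factors (0.0613) and without the count filter (0.0728). At 0.03 nM 2 h, 0 of the 15 were called by edgeR, DESeq2 or limma-voom, and 2 had an unadjusted p below 0.05, where 6.45% of all genes were higher and 3.37% lower. Leaving out single libraries gave up to 4 higher and 1 lower.

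Among 18 tested ATF4 targets of amino acid supply and oxidative stress, 12 were higher and 2 lower at 10 nM 2 h (median 0.49), whereas library totals gave 7 and 8 and upper quartile factors 9 and 5. At 10 nM 1 h, when Atf4 mRNA was already at its 2 h level, 3 were higher and 2 lower (18.5% and 18.3% of all genes). Slc7a11, the cystine importer, went from 5.65 and 6.10 CPM untreated to 97.8 and 91.4 CPM at 10 nM 1 h and 267 and 248 CPM at 10 nM 2 h (log2 5.46 ± 0.16, adjusted p = 1.67e-10). Slc7a5, a carrier of large neutral amino acids, was at 7.24 and 7.30 CPM untreated, 6.27 and 6.50 CPM at 10 nM 1 h and 19.7 and 21.9 CPM at 10 nM 2 h (log2 1.51 ± 0.12), and the cationic amino acid carrier gene Slc7a1 gave 1.74 ± 0.11. Sesn2, a leucine sensor and stress gene, went down from 33.4 and 34.0 CPM to 14.9 and 15.0 CPM at 1 h and 4.43 and 5.16 CPM at 2 h (log2 -2.81 ± 0.12, adjusted p = 1.55e-09). Cebpg, a bZIP partner of ATF4, gave -0.95 ± 0.07.

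The list of eIF2 kinases, eIF2 subunits and phosphatase subunits split, with 5 of 12 higher and 4 lower (median 0.06; library totals 5 and 7, upper quartile factors 5 and 5). Ppp1r15b, the constitutive counterpart of Ppp1r15a, followed a later course: 95.3 and 98.9 CPM untreated, 215 and 237 CPM at 10 nM 1 h, and 679 and 735 CPM at 10 nM 2 h (log2 2.86 ± 0.09, adjusted p = 2.85e-10). The adaptor gene Nck1 gave 2.87 ± 0.08 and Eif2s1, the phosphorylated subunit of eIF2, 0.86 ± 0.07. Eif2ak4 (GCN2, the amino acid starvation kinase) was lower beside Eif2ak3, at 25.0 and 22.7 CPM untreated and 10.3 and 10.5 CPM at 10 nM 2 h (log2 -1.19 ± 0.12). The exchange factor gene Eif2b4 gave -1.06 ± 0.16 and the heme-regulated kinase gene Eif2ak1 -0.51 ± 0.09. The eIF2 kinase gene Eif2ak2 went the other way and was higher (log2 1.53, adjusted p = 0.000228), so the kinase genes did not fall together.

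A further list held 10 tested genes of sensor processing, related ER-bound factors and stress signalling. Of these, 5 were higher and 2 lower at 10 nM 2 h (median 0.23). The split was 3 and 7 with library totals and 3 and 3 with upper quartile factors. The signalling genes Map3k5 (ASK1, 1.65 ± 0.08) and Traf2 (1.56 ± 0.09), which act below IRE1, and Nfe2l2 (NRF2, 1.00 ± 0.08) led. With TMM scaling the other higher genes were Creb3 (log2 0.32) and Nfe2l1 (log2 0.30). Mbtps1, the site-1 protease that cuts ATF6, was lower (-0.27 ± 0.07), not called without the experiment 2 library at 10 nM 2 h (adjusted p = 0.0598), and Creb3l3 (-1.24 ± 0.41) stood at 1.38 and 2.02 CPM untreated. Creb3l3 was not called without the untreated experiment 2 library or either 10 nM 2 h library (0.0694 to 0.138). Of 12 bZIP partners and stress-linked death factors, 9 were higher and 1 lower (median 1.51), with 7 and 3 under library totals and 8 and 1 under upper quartile factors. Atf3, a stress-induced bZIP factor, went from 189.7 and 188 CPM untreated to 622 and 631 CPM (1.73 ± 0.08), Bcl2l11 (BIM) from 135 and 149 CPM to 529 and 557 CPM (1.94 ± 0.09) and Nupr1 from 5.002 and 6.07 CPM to 189.6 and 209 CPM (5.17 ± 0.33). Bbc3 (PUMA) was lower (-0.35 ± 0.14, adjusted p = 0.0482), a call that DESeq2 (0.0889), limma-voom (0.0503) and RLE size factors (0.0659) did not make. It was also lost without either 0.03 nM 1 h library, either 10 nM 2 h library or the untreated experiment 1 library (0.0557 to 0.280).

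**Figure D4:**
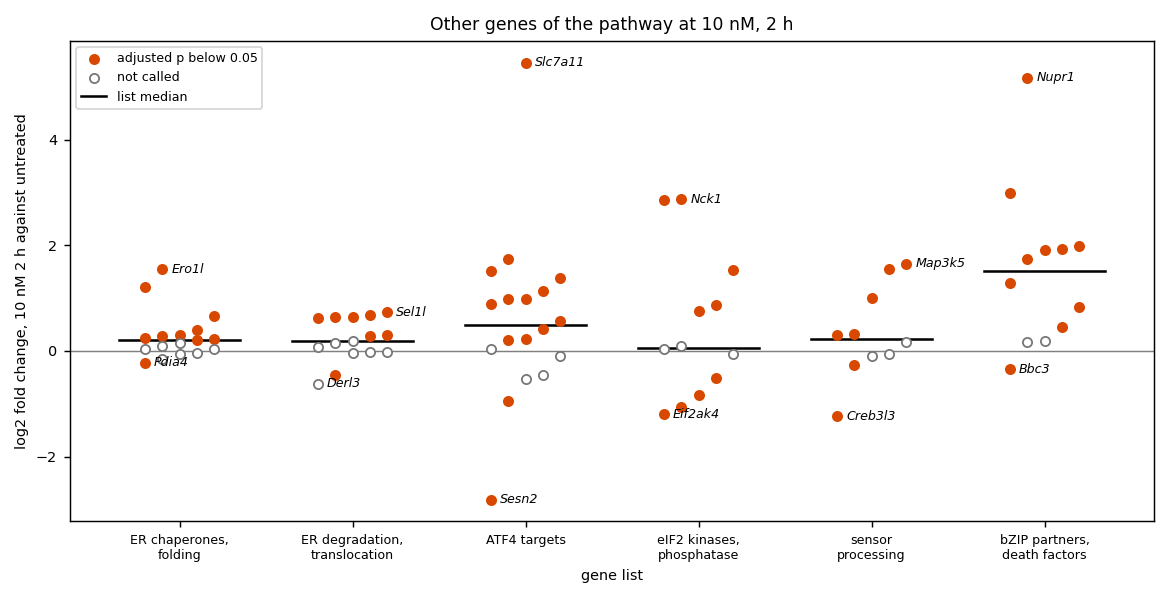
Log2 fold change at 10 nM 2 h against untreated cells for the tested genes of 6 pathway lists; filled points have an adjusted p below 0.05 in edgeR, and the black bar is the list median. Slc7a11 (5.46) and Nupr1 (5.17) stand highest and Sesn2 (-2.81) lowest, and medians run from 0.06 to 1.51 with TMM scaling.

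In the overall test of the 5 groups, Ppp1r15a, Herpud1 and Atf4 had the smallest p of the 10, and 9 passed; Trib3 did not (adjusted p = 0.0619). Over the 10 libraries, which share groups and experiments, the genes whose log2 level went most closely with Ppp1r15a among 10332 searched were Il10 (Pearson r = 0.992), Rgs1 (0.991) and Pvr (0.991). For Herpud1 they were Zkscan17 (0.976), Icosl (0.970) and Nfe2l2 (0.964), and for Atf4 they were Sqstm1 (0.992), Gripap1 (0.991) and Cd14 (0.991). Within the 10 regulators, Atf4 and Ppp1r15a had r = 0.923 and Ern1 and Eif2ak3 r = 0.857, while Chac1 and Eif2ak3 had r = -0.915.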

How the data were processed

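RNA-seq counts per gene of 10 macrophage libraries were used. The deposited count table holds whole reads per gene as the authors counted them, and per the submitters' processing notes the tools included featureCounts 1.4.5-p1, TopHat2 2.0.11, bcl2fastq 2.15.0.4 and DESeq2, with the mm9 genome. The authors also deposited regularised log2 values, used here in one alternative only. Strand handling in counting was not given in the sources used here.

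Counts were tested with edgeR 4.0.16 (R 4.3.3): filterByExpr on the 5 groups with a minimum count of 10, TMM factors, one mean per group, robust quasi-likelihood test on 5 residual degrees of freedom, and Benjamini-Hochberg adjustment over 12918 genes at 0.05. The procedure was run on simulated data in which few genes changed and in a single group only, unlike these data. That run cannot speak to the dependence on scaling, and its outcome is not given here. RPKM was computed from TMM-scaled CPM and exonic length. Each SE was derived from the test, as the absolute log2 change divided by the square root of the F statistic. With 2 libraries a group, p-values set a change against the spread between these samples. In edgeR that spread was estimated over all 5 groups and moderated across genes. Alternatives were RLE, library total and upper quartile scaling, no count filter, DESeq2 1.42.0, limma-voom and limma 3.58.1 on log2 values, only the groups compared, a block, a fold threshold, and leaving out each library.

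The labels number the 2 experiments, and deviations of same-numbered libraries correlated at 0.0397 to 0.236 (median 0.177, 7 of 10 group pairs above 0.1). The regulators, the 6 pathway lists and the tests were chosen with earlier results of these data known. Named list genes were up to 3 called genes of smallest p in each direction at 10 nM 2 h, against untreated cells and against 0.03 nM, and a choice of these is printed. Eif2ak2 and Creb3 were added outside this rule. Vimp and Rtcb, from the lists, had no row under those symbols. The level of 1 marker gene is not reported here.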

Additional observations from a re-analysis of the deposited data

Results flagged for a closer look

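For 5 regulators the change from 1 h to 2 h differed between 10 nM and 0.03 nM by a test of that difference itself (edgeR interaction term, adjusted over all genes tested). Herpud1 differed by -1.44 log2 (adjusted p = 1.54e-05), Eif2ak3, the PERK gene, by -1.39 (adjusted p = 0.000414), Ppp1r15a, the GADD34 gene, by -1.22 (adjusted p = 0.000514), Atf4 by -0.48 (adjusted p = 0.0180) and Xbp1 by 0.48 (adjusted p = 0.00411). Herpud1 moved in opposite directions at the 2 doses, higher with time at 0.03 nM in both experiments and lower at 10 nM in both.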

How the results depend on the processing

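Of 46 calls of a regulator in 9 comparisons, 26 held in every alternative other than the 2-fold threshold and 20 were lost in at least 1 of these; of 44 values not called, 19 passed in at least 1. Of 45 reversed signs, 2 concerned a called value, both with library totals: Xbp1 at 10 nM 2 h (-0.13) and Atf6 at 10 nM against 0.03 nM at 1 h (-0.042). Library totals also turned Xbp1 at 10 nM against 0.03 nM at 1 h (-0.18), Atf6 in that comparison at 2 h (-0.34; upper quartile factors -0.0669) and, from 1 h to 2 h at 0.03 nM, Xbp1 (-0.0389) and Trib3 (-0.0543). Trib3 in the latter also turned with RLE (-0.0012), DESeq2 (-0.003), limma-voom (-0.0345), log2 values (-0.0299) and only the groups compared (-0.0003). Atf6 at 10 nM 2 h turned with RLE and DESeq2 (0.016 each) and with log2 values (0.0066), which also turned the Trib3 interaction (0.0115). Requiring at least 2-fold left 1 called regulator at 0.03 nM 1 h, 1 at 0.03 nM 2 h, 3 at 10 nM 1 h, 5 at 10 nM 2 h, 4 between doses at 2 h, 0 from 1 h to 2 h at 0.03 nM, 3 at 10 nM and 3 interactions. The share of all genes at 2-fold was not computed. With only the groups compared, 2 were called at 0.03 nM 2 h (all genes 501 higher and 154 lower) and 1 from 1 h to 2 h at 0.03 nM (161 and 37). Between doses at 1 h, 7 were called that way (2815 and 2690) and 8 with library totals (1205 and 6584). The cause of these changes was not tested.

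With the experiment as a replicate block, 2 calls were gained between doses at 1 h, Ddit3 (-0.70) and Trib3 (-1.01), no other call changed, and Trib3 from 1 h to 2 h at 0.03 nM turned to -0.0343.

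Leaving out each library in turn gave 1 to 3 called regulators at 0.03 nM 1 h, 2 to 7 at 0.03 nM 2 h, 3 to 6 at 10 nM 1 h, 7 to 8 at 10 nM 2 h, 3 to 7 between doses at 1 h, 5 to 8 at 2 h, 1 to 5 from 1 h to 2 h at 0.03 nM, 4 to 7 at 10 nM and 4 to 6 interactions. Calls over all genes also changed with the library left out. Some values not called with all libraries turned sign. Against untreated cells these ran from -0.11 to 0.0509 (Atf4, 0.03 nM 1 h), -0.58 to 0.015 (Ddit3, 0.03 nM 2 h), -0.0409 to 0.81 (Trib3, 0.03 nM 2 h) and -0.15 to 0.11 (Atf6, 10 nM 2 h). Between doses they ran from -0.19 to 0.93 (Chac1, 1 h) and -0.0212 to 0.31 (Atf6, 2 h). From 1 h to 2 h at 0.03 nM they ran from -0.40 to 0.20 (Ddit3), -0.49 to 0.37 (Trib3), -0.26 to 0.65 (Chac1) and -0.40 to 0.0201 (Ppp1r15a), and at 10 nM from -0.0601 to 0.0032 (Atf4), -0.63 to 0.0936 (Ddit3) and -0.33 to 0.21 (Trib3). Interactions ran from -0.56 to 0.16 (Ddit3) and -0.44 to 0.39 (Trib3). That of Ern1 was -0.58 without the experiment 2 library at 0.03 nM 2 h and 0.14 without that of experiment 1. Depth limits Chac1, at 2 to 37 counts a library, and Trib3, at 18 to 79.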
